A study of Mus musculus with 10 samples.

Results

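Elastic fiber and microfibril genes were followed through 10 RNA sequencing libraries of mouse mammary fibroblasts and lobular breast tumor cells. The 10 genes were chosen by name from the 55486 genes of the count table: Eln, Fbn1, Fbn2, Fbln1, Fbln2, Fbln5, Efemp1, Efemp2, Mfap4 and Mfap5. All 10 were found. Normal fibroblasts (NFs) came from mammary glands of mTmG reporter mice aged 8 weeks. They had been sorted by the surface protein CD26 into CD26− and CD26+ cells and kept in flat culture before use. The study's methods describe a gate on cells negative for EpCAM, CD49f, CD45 and CD31, which removes epithelial, immune and endothelial cells at that step. Only CD26+ NFs had then received an adenovirus carrying Cre recombinase, which turns mTmG cells from red (Tomato) to green (GFP), so CD26 status and exposure to the virus cannot be told apart. Tumor cells were of the lines 13-MCB-17 and 10-SJK-221 from mice that model invasive lobular carcinoma (ILC), in which Cre driven by the Wap promoter of mammary epithelium acts on floxed alleles that include Cdh1, the gene of E-cadherin. Cells grew for 7 days in gels of collagen and basement membrane extract and were then sorted by color. Gel 1 held both NF subsets without tumor cells (1 library per subset), gels 2 and 3 held 13-MCB-17 and 10-SJK-221 cells alone, and gels 4 and 5 held both subsets together with 13-MCB-17 and 10-SJK-221 cells, respectively. NFs without tumor cells therefore came from 1 gel, and culture cannot be told apart from that gel. Gels 4 and 5 differed in tumor line. The study's methods describe NF sorts from pooled mice, and no source used here says whether the NFs of the 3 gels came from separate pools, so p-values measure the spread between these libraries.

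Elastic fibers give skin, vessels, lung and the stroma of the mammary gland their recoil. Cells secrete tropoelastin, the product of Eln, which fibulin-4 and fibulin-5 (Efemp2 and Fbln5) help to deposit on a scaffold of microfibrils, where lysyl oxidases crosslink it. Microfibrils are polymers of the large glycoproteins fibrillin-1 and fibrillin-2 (Fbn1, Fbn2). The microfibril-associated proteins Mfap4 and Mfap5, fibulin-2 (Fbln2) and the latent TGF-β binding proteins attach to them. Fibulin-1 (Fbln1), which binds elastin, and fibulin-3 (Efemp1) are of the same family as fibulin-2. Fibroblasts are the usual source of these proteins in the mammary stroma.

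Libraries held 14142334 to 18408940 counts, and values are given as counts per 1000000 counts of the library (CPM). A count of 0 allows up to 3 counts, which corresponds to 0.163 to 0.212 CPM depending on the library and covers counting error only. All 6 fibroblast markers examined were detected in all 6 NF libraries, and all 6 epithelial markers in all 4 tumor libraries. The epithelial sum was 0.435 and 0.842 CPM for NFs without tumor cells, where 4 and 5 of the markers stood at 0. It reached 98.7 to 260 CPM after co-culture, against 2757 to 4111 CPM for tumor cells. Shares of RNA from the other cells of a gel depended on the marker used. By Epcam, tumor RNA would make up 1.91 to 4.45% of the co-cultured NF libraries, and over all 6 epithelial markers 0.827 to 17.6%, with Krt19 the highest in each library. By Col1a1, NF RNA would make up 0.774% of the co-cultured tumor library of gel 4 and 0.226% of that of gel 5. The other fibroblast markers that tumor cells alone held at under 1 CPM gave 0% (Thy1) to 0.171% (Pdgfrb) in gel 4 and 0.0321% (Dcn) to 0.152% (Col1a2) in gel 5. Dpp4, which encodes CD26, had 0, 0 and 1 counts in CD26− NFs and 4, 12 and 4 counts in CD26+ NFs, in the order of the labels but too low to check them.

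Counts of 5 members can include reads of an overlapping gene on the opposite strand, since the use of strand in counting was not stated. The overlap covers 20.1% of the exon length of Fbn1 (chromosome 2, 125300594 to 125507993, GRCm38), 4.63% of Mfap4, 4.57% of Efemp2, 3.3% of Eln and 0.976% of Fbn2. Fbln1, Fbln2, Fbln5, Efemp1 and Mfap5 overlap no other exon. The 250 bases before the RefSeq start site nearest to the annotated gene start (GRCm38.p6) are shown for 3 members that moved in different ways in these data: Efemp1, which fell most in co-cultured NFs, Fbln2, which rose in co-cultured tumor cells, and Fbln1, which fell in co-cultured NFs without a call between the subsets. Capitals mark matches, on either strand, to the GC box GGGCGG, the AP-1 site TGANTCA and the SMAD element CAGAC, in sequences printed 5′ to 3′ on the strand of the gene.
Efemp1 (chr11:28852955-28853204, plus strand): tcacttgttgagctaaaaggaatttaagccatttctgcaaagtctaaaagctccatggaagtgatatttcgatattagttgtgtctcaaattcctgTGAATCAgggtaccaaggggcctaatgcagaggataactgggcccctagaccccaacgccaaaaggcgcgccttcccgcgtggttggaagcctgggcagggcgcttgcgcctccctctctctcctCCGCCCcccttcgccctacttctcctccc
Fbln2 (chr6:91212514-91212763, plus strand): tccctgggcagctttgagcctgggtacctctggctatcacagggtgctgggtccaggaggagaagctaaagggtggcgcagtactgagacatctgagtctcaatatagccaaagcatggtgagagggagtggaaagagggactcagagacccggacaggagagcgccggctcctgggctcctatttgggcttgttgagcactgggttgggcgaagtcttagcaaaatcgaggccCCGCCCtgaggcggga
Fbln1 (chr15:85205699-85205948, plus strand): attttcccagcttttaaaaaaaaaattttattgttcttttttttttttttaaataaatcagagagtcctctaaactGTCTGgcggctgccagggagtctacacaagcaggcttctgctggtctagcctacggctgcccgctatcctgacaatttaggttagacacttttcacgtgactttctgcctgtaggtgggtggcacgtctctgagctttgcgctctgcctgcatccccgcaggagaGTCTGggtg
Efemp1 held 1 AP-1 site and 1 GC box, Fbln2 held 1 GC box, and Fbln1 held 2 SMAD elements and no GC box. The marked matches do not overlap each other. The start site used for Fbln2 lay 309 bases inside the annotated gene, so its printed window lies within that gene. For Efemp1 and Fbln1 the start site lay 1 and 0 bases from the gene start. Of 32851 windows of this length, 6.75% held an AP-1 site, 32.7% a GC box and 42.2% a SMAD element. Fbn1, Fbln5 and Efemp2 also had a window in the table, with 1, 2 and 2 GC boxes. Efemp2 held 2 SMAD elements as well. A match describes the letters and is not evidence of binding.

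Levels of different genes were compared per kilobase of merged exon length (CPM per kb). Fbln2, a fibulin of basement membranes and elastic fibers, had the highest level of the 10 members in every library. In NFs alone it was followed by 4 members of similar level. In the CD26− library these were Fbn1 at 287 CPM per kb, Efemp1 at 252, Efemp2 at 247 and Fbln1 at 213, against 735 CPM per kb for Fbln2. In the CD26+ library of gel 1 the same 4 genes lay between 187 CPM per kb (Fbn1) and 312 CPM per kb (Efemp1), against 523 for Fbln2. Eln was the lowest member in both, at 2.32 and 3.57 CPM per kb.

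The order was different in co-culture. In co-cultured CD26− NFs, Mfap5, which encodes a microfibril-associated glycoprotein, was second at 208 ± 5.07 CPM per kb (SD, n = 2), ahead of Fbn1 at 166 ± 45.9 and Efemp2 at 79.2 ± 2.85. Levels of Mfap5 and Fbn1 were close in gel 5 (212 and 199 CPM per kb). Efemp1 was last at 0.419 ± 0.0872 CPM per kb. In co-cultured CD26+ NFs, Mfap5 was second at 164 ± 23.6, Fbn1 next at 82.0 ± 1.30, and Eln last at 0.787 ± 0.0357 CPM per kb. Fbln5 and Efemp1, at 4.55 ± 0.543 and 4.46 ± 0.957 CPM per kb, did not differ beyond their spread there. The sum over the members was 1929 and 1637 CPM per kb in NFs alone and 793 to 1146 in co-cultured NFs.

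In tumor cells nearly all of the group's signal was Fbln2. It made up 96.1 to 97.9% of the summed CPM per kb, against 32.0 and 38.1% in NFs alone and 50.8 to 56.8% in co-cultured NFs. Without Fbln2, the sum was 8.95 and 13.3 CPM per kb in tumor cells alone and 24.8 and 30.0 in co-cultured tumor cells, most of it Efemp2.

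**Figure D1:**
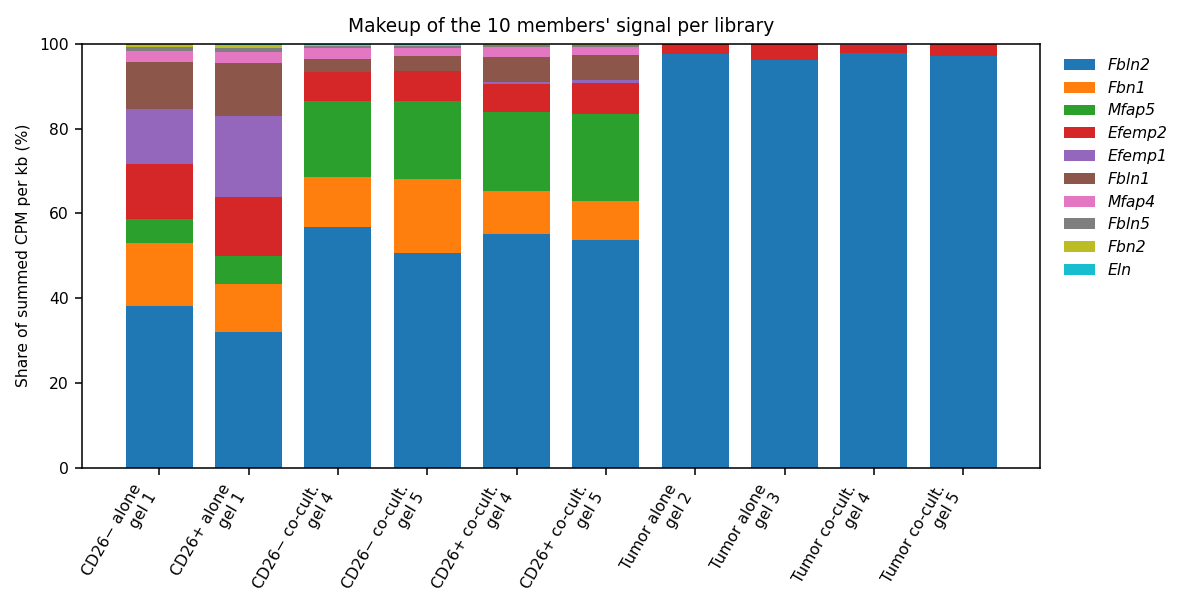
Stacked bars of the share of each member in the summed CPM per kb of the 10 members (%, vertical axis) for each of the 10 libraries (horizontal axis). Fbln2 fills 96.1 to 97.9% of the bars of tumor cells, and Mfap5 is wider and Efemp1 narrower in co-cultured NFs than in NFs alone.

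NFs were then compared with tumor cells. Among 17048 genes tested, 55.5% differed between NFs and tumor cells grown alone (edgeR quasi-likelihood test, Benjamini-Hochberg adjusted p-value under 0.05), 28.4% higher and 27.1% lower in NFs. All 10 members were higher in NFs. Most of them entered this test through the NF libraries, so their count supports nothing beyond the levels. Fbn2 had 185 and 187 CPM in NFs alone and 0 counts in both tumor libraries, at least 1051-fold higher against a floor of 3 counts per library. Eln had 303 and 412 counts in NFs alone and 1 count in each tumor library, a ratio of 402 (95% exact interval 111 to 3326, counting error only). Fbln1, with 930 and 898 CPM in NFs, had 1 and 0 counts. Mfap4 had 0 and 2 counts in tumor cells alone against 100 and 80.9 CPM in NFs.

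Fbln2 and Efemp2 were the members that tumor cells expressed. Fbln2 reached 4683 CPM (CD26−) and 3333 CPM (CD26+) without tumor cells, against 2255 CPM for 13-MCB-17 and 2096 CPM for 10-SJK-221 cells. The groups did not overlap, and the log2 fold change was 0.99 (SE 0.188, adjusted p = 0.00246). Efemp2, which encodes fibulin-4, had 935 and 861 CPM in NFs alone against 33.1 and 47.3 CPM in tumor cells alone (log2 fold change 4.62, SE 0.253, adjusted p = 2.14e-06).

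Within the gels that held both cell types, Fbln2 was on the other side. Co-cultured tumor cells had 7316 and 6231 CPM, more than any NF library, whereas the NFs of the same gels had 2784 to 4114 CPM. The log2 fold change of NFs against tumor cells was −0.81 (SE 0.158, adjusted p = 0.00305). The other 9 members were higher in co-cultured NFs, beside a background of 51.8% of genes called, 27.7% higher and 24.2% lower. Here too most of them entered the test through the NF libraries, and Eln, Fbn2, Fbln1 and Efemp1 had 0 to 2 counts in each tumor library, so their count supports nothing beyond the levels. Efemp2 had a log2 fold change of 1.63 (SE 0.204, adjusted p = 0.000254). Over the 6 epithelial markers, the share of tumor RNA in co-cultured NF libraries would bring 51.5 to 1096 CPM of Fbln2 and 0.902 to 19.2 CPM of Efemp2, and its part in the levels was not tested.

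**Figure D2:**
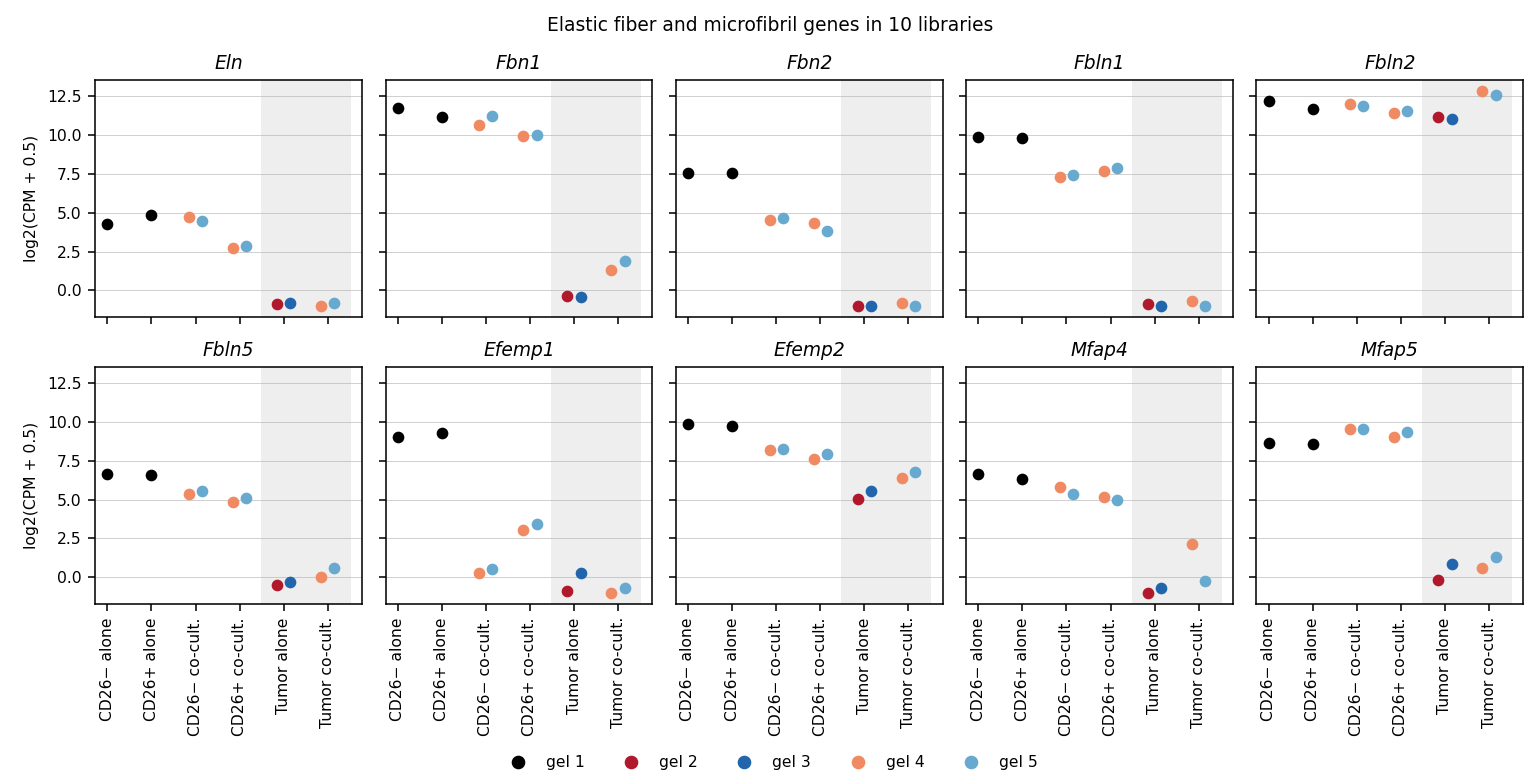
Level of each member as log2(CPM + 0.5) (vertical axis) in the 6 groups (horizontal axis), with 1 point per library, colored by gel, and tumor libraries on gray. Fbln2 is high in all libraries and highest in co-cultured tumor cells, at 7316 and 6231 CPM.

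Next, co-cultured NFs were compared with NFs alone to describe how the genes responded to tumor cells. Of 15013 genes tested, 48.8% differed, 25.9% higher and 22.9% lower in co-culture. Of the 10 members 7 fell, 1 rose and 2 did not pass the threshold. Their median log2 fold change was −1.25, beside 0.02 over all genes. Fewer cells of a type and less RNA per cell cannot be told apart in such bulk libraries. Of the 6 fibroblast markers 3 fell and 2 rose in the same comparison, and their summed level was 38596 and 34366 CPM without tumor cells, against 17370 to 28072 CPM with them. The smooth muscle or pericyte markers summed to 74.5 and 105 CPM without tumor cells and to 161 to 405 CPM with them, and 3 of 6 rose and 1 fell, with Notch3 at 1.90 and Mcam at 4.02 on the log2 scale. The endothelial markers summed to 4.35 and 9.76 CPM and to 8.06 to 24.4 CPM, and Pecam1 (3.35) and Cdh5 (3.54) rose while Tek fell (−2.48). The part of these shifts in the members' values was not tested.

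Efemp1, which encodes fibulin-3, changed most. Without tumor cells it stood at 514 CPM (CD26−) and 635 CPM (CD26+). With them, gels 4 and 5 gave 0.727 and 0.978 CPM for the CD26− subset and 7.71 and 10.5 CPM for the CD26+ subset. All 4 co-cultured values lay far below both values without tumor cells, with a log2 fold change of −7.39 (SE 0.508, adjusted p = 4.39e-06). The tumor RNA in these libraries would bring at most 0.0201 CPM of Efemp1 by any of the 6 epithelial markers.

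Among the microfibril backbone genes, Fbn2 fell from 185 and 187 CPM to between 13.5 and 24.7 CPM (log2 fold change −3.19, SE 0.175, adjusted p = 1.2e-06). Fibrillin-2 is the form most used in development. Fbn1, the main fibrillin of adult tissue, stood at 3481 CPM (CD26−) and 2263 CPM (CD26+) without tumor cells. With them it stood at 1624 and 2412 CPM for the CD26− subset and at 983 and 1006 CPM for the CD26+ subset. It fell less, by 0.94 on the log2 scale (SE 0.201, adjusted p = 0.00392), and its CD26− library of gel 5 overlapped the CD26+ library without tumor cells. Without the CD26+ library of gel 1, Fbn1 did not pass the threshold (log2 fold change −0.72, adjusted p = 0.0514).

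The fibulins did not move alike. Fbln1, which binds fibronectin and elastin, fell from 930 and 898 CPM to between 158 and 235 CPM (log2 fold change −2.22, SE 0.151, adjusted p = 4.05e-06). Efemp2 fell from 935 and 861 to between 199 and 308 CPM (log2 fold change −1.74, SE 0.152, adjusted p = 1.75e-05), and Fbln5, which binds tropoelastin and integrins, fell from 101 and 96.4 to between 28.8 and 47.5 CPM (log2 fold change −1.36, SE 0.155, adjusted p = 9.04e-05). None of these 3 genes overlapped between cultures. Fbln2 had 2784 to 4114 CPM in co-culture, a range that includes the 3333 CPM of CD26+ NFs alone, and its log2 fold change of −0.18 (95% interval −0.53 to 0.17) did not pass the threshold (adjusted p = 0.367). Tumor RNA in these co-cultured NF libraries would bring 51.5 to 1096 CPM of Fbln2 over the 6 epithelial markers, and its part in this comparison was not tested.

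The 2 microfibril-associated genes went in opposite directions. Mfap4 fell from 100 and 80.9 CPM to between 31.5 and 55.3 CPM (log2 fold change −1.13, SE 0.141, adjusted p = 0.000163). Mfap5 was the member that rose, from 400 to 734 and 760 CPM for CD26− NFs and from 391 to 530 and 650 CPM for CD26+ NFs (log2 fold change 0.79, SE 0.161, adjusted p = 0.003). Its co-cultured values all lay above both values without tumor cells. Eln had 18.8 CPM (CD26−) and 28.9 CPM (CD26+) without tumor cells, against 25.4 and 21.9 CPM (CD26−) and 6.17 and 6.58 CPM (CD26+) with them, and the average over subsets did not pass the threshold (log2 fold change −0.98, adjusted p = 0.0973). It depended on the library compared: without the CD26− library of gel 1 the log2 fold change was −2.15 (adjusted p = 1.22e-05), and without the CD26+ library of gel 1 it was 0.38 (adjusted p = 0.241).

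**Figure D3:**
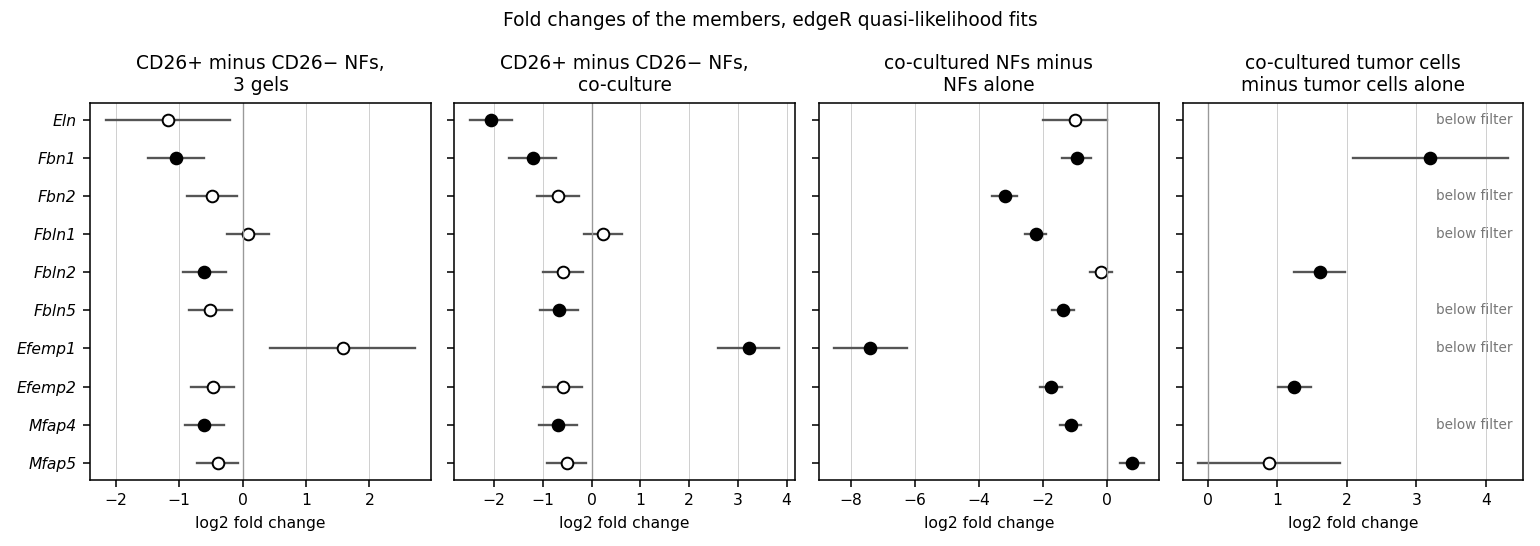
Log2 fold change (horizontal axis) with 95% interval for each member (vertical axis) in 4 comparisons, with filled points where the adjusted p-value was under 0.05, open points where it was not, and genes below the count filter named as such. Efemp1 stands at −7.39 in co-cultured NFs and at 3.22 for CD26+ against CD26− NFs in co-culture.

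To compare the subsets, CD26+ NFs were set against CD26− NFs over the 3 gels that held both. In this test 7.53% of 15013 genes passed, 3.93% with higher and 3.6% with lower levels in the CD26+ subset. Of the members 3 were lower in CD26+ NFs, none was higher by edgeR, and the median log2 fold change was −0.49 beside 0.00 over all genes. At an unadjusted p under 0.05, 9 of the 10 members and 3752 of all genes passed, and DESeq2 called 5 members and 1676 genes. Among the markers of cell types, Col1a2 (−0.79) and Pdgfrb (−0.85) were lower in CD26+ NFs and the endothelial Kdr (2.11) was higher. The part of these markers in the members' values was not tested. Fbn1 was lower by 1.05 on the log2 scale (SE 0.197, adjusted p = 0.0169), with 2263 against 3481 CPM in gel 1, 983 against 1624 CPM in gel 4 and 1006 against 2412 CPM in gel 5. CD26+ NFs were lower in each gel, although the ranges over gels overlapped. Fbln2 (log2 fold change −0.60, SE 0.149, adjusted p = 0.0417) and Mfap4 (−0.60, SE 0.138, adjusted p = 0.0324) were also lower in each gel. These calls were not firm. Fbn1 lost its call without the gel 5 library of CD26− NFs (adjusted p = 0.0626), of CD26+ NFs (0.0915) or of both (0.199). Mfap4 lost it without any 1 of the 4 co-cultured libraries or without both of gel 4 or gel 5 (adjusted p 0.0557 to 0.27), and Fbln2 without any 1 of the 6 libraries or any 1 gel (adjusted p 0.0771 to 0.298).

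In co-culture alone, with 2 gels per subset, 6.01% of 16231 genes passed, 3.48% being higher and 2.53% lower in the CD26+ subset. Of the 10 members 4 were lower and 1 higher in CD26+ NFs. Eln, the gene of elastin itself, reached 25.4 CPM in the CD26− library of gel 4 and 21.9 CPM in that of gel 5, against 6.17 and 6.58 CPM for CD26+ NFs, without overlap (log2 fold change −2.06, SE 0.202, adjusted p = 5.09e-05). Efemp1 went the other way, with 7.71 and 10.5 CPM for the CD26+ subset against 0.727 and 0.978 CPM for the other (log2 fold change 3.22, SE 0.294, adjusted p = 2.69e-05). Fbn1 was lower in CD26+ NFs in both gels (log2 fold change −1.20, SE 0.224, adjusted p = 0.00612), as were Mfap4 at 34.9 and 31.5 against 55.3 and 40.5 CPM (−0.70, SE 0.181, adjusted p = 0.0380) and Fbln5 at 28.8 and 34.1 against 41.0 and 47.5 CPM (−0.67, SE 0.184, adjusted p = 0.0483). Fbn2, Fbln2, Efemp2 and Mfap5 had log2 fold changes of −0.70, −0.59, −0.59 and −0.51 and did not pass the threshold. Fbln1 was the other member with a positive value, at 0.23 (95% interval −0.16 to 0.62).

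Both subsets of a gel had shared that gel. With the gel as replicate block in the 4 co-cultured NF libraries (a paired fit with 1 residual degree of freedom), 2407 genes and 9 of the 10 members passed. The 4 additional members were Fbn2 (adjusted p = 0.00194), Efemp2 (0.00605), Fbln2 (0.00959) and Mfap5 (0.0226), all lower in CD26+ NFs. Leaving out 1 library leaves a subset with a lone library, which is assumed to vary like the other groups. Without the CD26+ library of gel 4 or of gel 5, Eln (adjusted p = 0.142 and 0.0712), Efemp1 (0.103 and 0.0694) and Fbn1 (0.201 and 0.199) lost their calls, and without the CD26− library of gel 5 Fbn1 did so too (0.197). Fbln5 and Mfap4 lost theirs without any 1 of the 4 libraries (adjusted p 0.111 to 0.564 and 0.108 to 0.374). Without a filter beyond 1 count they also lost them (0.0995 and 0.075), and Fbln5 did so with a filter of 1 CPM in 2 libraries (0.0582). The log2 fold changes of all 10 members kept their sign without any 1 of these libraries.

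Markers of other cells differed in the same libraries. The fibroblast markers summed to 27298 and 28072 CPM for the CD26− subset in co-culture, against 17370 and 20878 CPM for the CD26+ subset, and 3 of the 6 were lower in CD26+ NFs. The 6 smooth muscle or pericyte markers summed to 259 and 405 CPM for the CD26− subset of gels 4 and 5 and to 161 and 208 CPM in the CD26+ subset, and 2 of them, Notch3 and Mcam, were lower in CD26+ NFs, although DESeq2 did not call Mcam (adjusted p = 0.287). The 4 endothelial markers summed to 10.1 and 8.06 CPM against 24.4 and 14.8 CPM, and Kdr and Tek were higher in CD26+ NFs at no more than 8.35 CPM. The epithelial sum was 98.7 and 125 CPM against 142 and 260 CPM, with no marker past the threshold by edgeR or DESeq2 and 3 of 6 at an unadjusted p under 0.05. Immune markers summed to 31.0 to 62.8 CPM, with Ptprc, the pan-leukocyte gene, at 0 or 1 counts. The part of these markers in the members' differences was not tested.

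Whether the subsets responded differently to co-culture was tested by the interaction of subset and culture. Only 0.376% of 16231 genes passed, 0.228% with a higher and 0.148% with a lower response in CD26+ NFs, and 2 of the 10 members were among them. Eln went from 28.9 CPM in gel 1 to 6.17 and 6.58 CPM in CD26+ NFs, while CD26− NFs went from 18.8 CPM to 25.4 and 21.9 CPM, an interaction of −2.54 on the log2 scale (SE 0.333, adjusted p = 0.00547). Without tumor cells Eln was higher in CD26+ NFs, and with them it was lower. Efemp1 was lower with tumor cells in both subsets, but by less in CD26+ NFs, with an interaction of 3.06 (SE 0.404, adjusted p = 0.00547). On the scale of log2(CPM + 0.5) the difference from gel 1 was −8.71 and −8.44 for CD26− NFs in gels 4 and 5, and −6.28 and −5.86 for CD26+ NFs.

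The interaction rests on 1 library per subset without tumor cells. With the gel as replicate block, a paired fit with 1 residual degree of freedom, both calls held (adjusted p = 2.4e-11 for Eln and 1.04e-11 for Efemp1), and 395 genes passed in place of 61. The spread in that fit comes from gels 4 and 5 only, since gel 1 alone sets the subset difference without tumor cells. Without the CD26+ library of gel 4 or of gel 5, no gene passed by edgeR, with 1232 and 1772 genes and 3 and 2 members at an unadjusted p under 0.05. Eln and Efemp1 then had adjusted p = 0.637 and 0.409, with interactions of −2.49 and −2.65 for Eln and 3.27 and 2.76 for Efemp1. DESeq2 called both genes (adjusted p = 6.86e-05 and 2.8e-08). The other 8 members had interactions between −0.57 (Fbn2) and 0.42 (Fbln1), with standard errors of 0.307 to 0.383. The pericyte marker Notch3 also passed (−2.10, SE 0.366, adjusted p = 0.0272), with 28.3 and 68.9 CPM in CD26− and CD26+ NFs alone and 188, 271, 125 and 141 CPM in the CD26− and then the CD26+ NFs of co-cultures. Its part in the result for Eln was not tested.

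**Figure D4:**
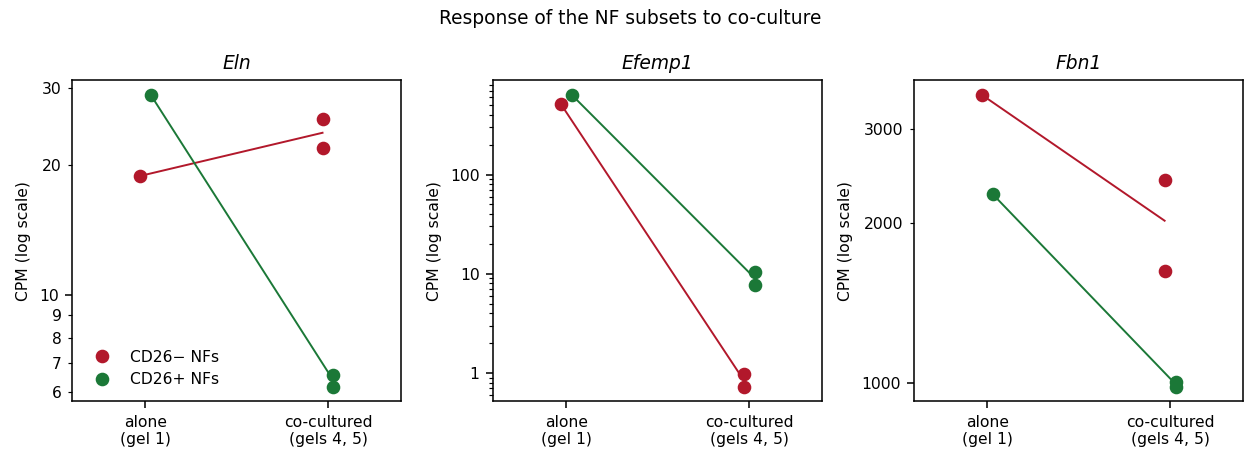
CPM on a logarithmic vertical axis for Eln, Efemp1 and Fbn1 in CD26− NFs (red) and CD26+ NFs (green), without tumor cells (gel 1) and with them (gels 4 and 5), with 1 point per library and lines through the means. The lines cross for Eln, from 18.8 and 28.9 CPM to 23.7 and 6.37 CPM, and do not cross for Efemp1 or Fbn1.

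Finally, tumor cells from co-cultures were compared with the same lines grown alone. Of 13197 genes tested, 22.3% differed, 10.8% higher and 11.5% lower in co-culture. Only 4 of the 10 members passed the filter on low counts, and 3 of these rose. Fbln2 rose from 2255 to 7316 CPM in 13-MCB-17 cells and from 2096 to 6231 CPM in 10-SJK-221 cells, a log2 fold change of 1.61 (SE 0.158, adjusted p = 0.000378). Efemp2 rose from 33.1 to 84.2 CPM in the first line and from 47.3 to 109 CPM in the second, by a log2 fold change of 1.25 (SE 0.101, adjusted p = 0.000158). Both co-cultured values of either gene lay above both values of tumor cells alone, and both calls held without any 1 tumor library. Over the 5 fibroblast markers used, NF RNA in these libraries would bring at most 26.7 and 7.64 CPM of Fbln2 and 1.90 and 0.632 CPM of Efemp2.

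Fbn1 also rose, from 0.272 and 0.254 CPM to 1.98 and 3.19 CPM (log2 fold change 3.20, SE 0.486, adjusted p = 0.0026), at levels where the marker decides how much NF RNA would bring. The 5 markers gave 0 to 10.1 CPM in gel 4 and 0.548 to 3.86 CPM in gel 5, ranges that include both measured values, and the part of NF RNA in this rise was not tested. Mfap5 measured 0.380 and 1.27 CPM in the lines alone, against 1.02 and 1.94 CPM after co-culture (log2 fold change 0.89, 95% interval −0.14 to 1.91, adjusted p = 0.198), against 0 to 4.90 and 0.226 to 1.59 CPM from NF RNA. Mfap4 had 0 and 2 counts in tumor cells alone and 68 and 6 counts, or 3.85 and 0.342 CPM, in co-culture, where NF RNA would bring at most 0.349 and 0.0813 CPM. It did not pass the filter. Fbln5 had 4 and 5 counts alone and 9 and 18 counts in co-culture. Eln, Fbn2 and Fbln1 stayed at 2 counts or fewer in every tumor library, and Efemp1 had 1 and 11 counts alone and 0 and 2 in co-culture. Of the 5 fibroblast markers that passed the filter 4 rose in the same libraries.

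**Figure D5:**
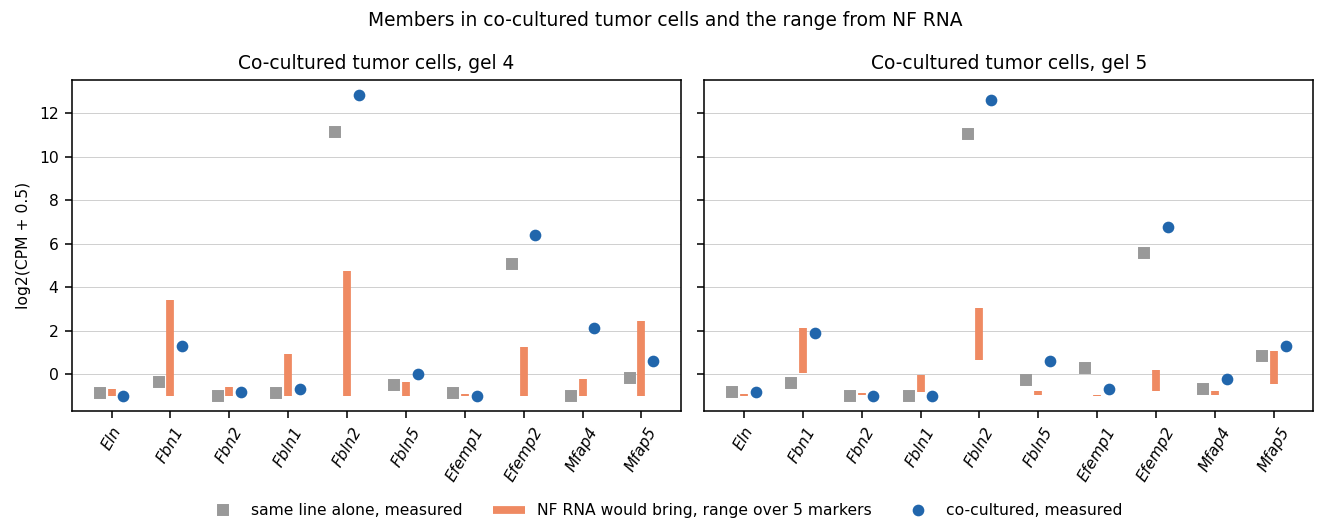
Members in co-cultured tumor cells of gels 4 and 5 as log2(CPM + 0.5) (vertical axis), with the same line grown alone (gray squares), the range that NF RNA would bring over 5 fibroblast markers (orange bars) and the measured level (blue circles). Fbln2 and Efemp2 lie above the square and the bar in either gel, whereas Fbn1 lies within the bar, which reaches 10.1 CPM in gel 4 and 3.86 CPM in gel 5.

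Genes that act on the same fibers were described by list. The 5 lysyl oxidases, which crosslink elastin and collagen, held 3 genes lower in CD26+ NFs in co-culture: Loxl2 (log2 fold change −0.97, adjusted p = 0.0437), Loxl1 (−0.80, adjusted p = 0.0218) and Lox (−0.72, adjusted p = 0.0416). DESeq2 did not call Loxl2 (adjusted p = 0.326). The median log2 fold change of the list was −0.77, beside 0.01 over all genes, of which 2.53% were lower. Over the 3 gels none passed by edgeR, with 4 at an unadjusted p under 0.05 and 2 called by DESeq2, beside 3752 and 1676 of all genes. In co-cultured against single NFs 2 rose, Loxl2 (1.65, adjusted p = 0.0015) and Lox (0.71, adjusted p = 0.00999), while the median of the list was −0.22, and 25.9% of all genes rose. In tumor cells 4 of the 5 were tested, with 2 higher and 1 lower in co-culture, beside 10.8% and 11.5% of all genes. Loxl3 had a log2 fold change of 3.42 (adjusted p = 0.00287) and Loxl4 of −2.12 (adjusted p = 3.37e-05). NFs exceeded tumor cells in 4 of the 5 both alone and in co-culture, beside 28.4% and 27.7% of all genes. Some of the list entered these tests through the NF libraries only. Loxl4 was lower in NFs alone than in tumor cells alone, beside 27.1% of all genes.

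Of the 16 microfibril partners 3 were lower in CD26+ NFs over the 3 gels, and the same 3 were lower in co-culture alone, beside 3.6% and 2.53% of all genes. They were Hmcn1, which encodes hemicentin-1 (log2 fold change −1.92 over the gels, adjusted p = 0.00245), and the latent TGF-β binding proteins Ltbp2 (−1.54, adjusted p = 0.00106) and Ltbp4 (−0.65, adjusted p = 0.0124). In co-cultured against single NFs 5 rose and 4 fell, beside 25.9% and 22.9% of all genes, and the median was 0.10. Emilin3 (5.51, adjusted p = 0.000114, from 0.124 and 0 CPM to between 1.93 and 4.54 CPM), Ltbp4 (1.43, adjusted p = 1.97e-05) and Adamtsl5 (1.05, adjusted p = 0.00057) rose most. Vcan, the gene of the proteoglycan versican (−2.29, adjusted p = 1.11e-05), Mfap2, which encodes another microfibril-associated glycoprotein (−1.97, adjusted p = 4.23e-05), and Hmcn1 (−1.51, adjusted p = 0.000407) fell most. Of 11 partners tested in tumor cells 4 rose and 2 fell, beside 10.8% and 11.5% of all genes, with the largest values for Adamts10 (2.34, adjusted p = 0.00109) and Thsd4 (−1.44, adjusted p = 0.000937). DESeq2 called 5 partners there. NFs exceeded tumor cells in 9 of the 16 and were below them in 5 when grown alone, beside 28.4% and 27.1% of all genes. In co-culture the counts were 11 and 2, beside 27.7% and 24.2% of all genes. Some of these, such as Hmcn1 with 0 counts in tumor cells alone, entered the test through the NF libraries only, so these counts are a description.

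The list of 9 elastin-degrading proteases had 6 members tested in NFs, where 25.9% of all genes were higher and 22.9% lower in co-culture, and 3.93% higher in CD26+ NFs over the gels. Mmp12, the macrophage elastase, was higher in CD26+ NFs over the gels (log2 fold change 1.78, adjusted p = 0.00357) and in co-culture (1.87, adjusted p = 2.92e-05). Co-cultured NFs were higher than single NFs in Mmp9, a gelatinase (8.36, adjusted p = 5.47e-08), Mmp12 (8.06, adjusted p = 4.02e-07) and the cysteine protease Ctsk (0.50, adjusted p = 0.0483), and lower in Mmp14, a membrane-bound collagenase (−0.90, adjusted p = 0.00295). Mmp9 went from 12.9 and 18.6 CPM to between 3880 and 6332 CPM. Mmp12 went from 0.373 and 0.281 CPM to 41.3 and 33.7 CPM for the CD26− subset and to 151 and 158 CPM for the CD26+ subset. The immune markers in the same libraries summed to 11.4 and 13.4 CPM without tumor cells and to 31.0 to 62.8 CPM with them. Cd68 and Csf1r rose, Lyz2 fell and Ptprc had at most 1 count, and their part in these values was not tested. Tumor cells of gels 2 and 3, grown alone, had higher immune sums of 301 and 101 CPM, with Cd68 at 299 and 93.1 CPM and Ptprc at 0 and 2 counts. The gate of the first sort would remove cells with CD45, the product of Ptprc. In co-cultured tumor cells Mmp2 (3.02, adjusted p = 0.000114), Mmp9 (1.36, adjusted p = 0.00015) and Mmp14 (0.38, adjusted p = 0.0419) were higher and none of the 6 tested was lower, beside 10.8% and 11.5% of all genes. Over the 5 fibroblast markers used, NF RNA would bring 0 to 25.7 CPM of the 42.3 CPM of Mmp2 in gel 4 and 0.928 to 6.54 CPM of the 16.4 CPM in gel 5, and its part in the rise was not tested. DESeq2 did not call Mmp14 there (adjusted p = 0.112). Of 7 tested between cell types, 3 were higher and 2 lower in NFs alone, beside 28.4% and 27.1% of all genes, and 5 were higher in co-cultured NFs, beside 27.7%. No gene of these 3 lists passed for the interaction by edgeR or DESeq2, with 1 lysyl oxidase, 2 partners and 1 protease at an unadjusted p under 0.05, as were 1265 of the 16231 genes tested.

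The genes whose pattern over the 10 libraries was most like that of Eln and Fbn1 were sought by the root mean square difference of centered log2(CPM + 0.5) among 9332 genes with a mean of at least 10 CPM. For Eln these were Clec11a (difference 0.388), Plagl1 (0.417), Rarres1 (0.448), Cntln (0.474) and Gnao1 (0.484). Fbln5 was the member nearest to Eln, at rank 58 (0.706). For Fbn1 they were Pdgfrb (0.427), Slit3 (0.607), Fstl1 (0.638), Ccdc80 (0.642) and Cdh11 (0.645), and the nearest member was Fbln1 at rank 36 (1.03). These libraries share the split into NFs and tumor cells, which dominates the measure.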

How the data were processed

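The authors deposited raw read counts per gene for all 10 libraries as 1 table, without normalization. The submitters' processing notes name HISAT2 2.2.1 and GRCm38. The counting program, its strand setting and the annotation release were not given in the sources used here. Libraries were stranded mRNA preparations, per the labels. Of the gene IDs, 99.38% were in GENCODE M21, which gave exon lengths. The table's only line lacking a gene ID had 0 counts.

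CPM used library totals. Genes were tested with the quasi-likelihood F test of edgeR 4.0.16 (R 4.3.3) after filterByExpr and TMM scaling, with Benjamini-Hochberg adjustment over all genes tested and a threshold of 0.05. Standard errors (SE) were derived from the log2 fold change and its F statistic. NF fits used the 6 NF libraries with subset and culture as terms, or as 4 groups for co-culture and the interaction. Tumor fits used line and culture, and comparisons of cell types used all 10 libraries in 6 groups. DESeq2 1.42.0, RLE scaling, other filters, a log2 fold change above 2, the gel as replicate block and left-out libraries were alternatives. Subsets and tumor cells of a gel are paired by the labels. Deviations of same-gel libraries from their group means correlated at 0.251 between NF subsets, and at 0.184 and 0.0977 between tumor cells and CD26− or CD26+ NFs, over 13490 genes.

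Shares of RNA from other cells were computed per marker as its level in the co-cultured library over its level in the source cells of the same gel (for NFs, the mean of both subsets), with the level of the receiving cells alone subtracted from both. Col1a1 and Epcam were the first choice, and the other markers of their lists were added after seeing the data. Pdgfra was left out because tumor cells alone expressed it. Values on a log scale used log2(CPM + 0.5), a pseudocount of 0.5. All 10 members were named. Of the lists, at most 3 genes per direction and comparison were named, those with the largest change among genes past the threshold with a mean of at least 1 CPM. Members and lists were chosen with earlier results of these data known. The full genotype of the tumor lines is not reported here.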

Additional observations from a re-analysis of the deposited data

Results flagged for a closer look

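The response to co-culture differed between CD26− and CD26+ NFs for 2 of the 10 members, by the interaction test of edgeR's quasi-likelihood fit over all genes. Eln had an interaction of −2.54 on the log2 scale (adjusted p = 0.00547), and Efemp1 had one of 3.06 (adjusted p = 0.00547). The test called 0.376% of 16231 genes. Neither gene passed without the CD26+ library of gel 4 (adjusted p = 0.637) or of gel 5 (adjusted p = 0.409). Groups of 4 or more libraries of 1 kind were absent, so single libraries were not screened for outlying values.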

How the results depend on the processing

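Directions were stable. Apart from 3 member results, each 1 gene in 1 comparison, every log2 fold change of the members kept its sign under every alternative run. The exceptions came from leaving out libraries: Fbln1 in CD26+ against CD26− NFs over 3 gels (range −0.0064 to 0.24, reversed under 2 alternatives), Eln in co-cultured NFs against NFs alone (−2.15 to 0.38, the highest without the CD26+ and the lowest without the CD26− library of gel 1), and Fbln2 in the interaction (−0.095 to 0.11). Calls of the 10 members between cell types held under every alternative except the added fold criterion. Those in tumor cells did so under the alternatives that kept every tumor library. Without 1 tumor library, a single line gave the culture difference and the spread came from NF libraries. The subset calls depended on single libraries, and those of Fbln5 and Mfap4 in co-culture on the filter too, and a lone library was assumed to vary like the other groups.

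With a log2 fold change above 2 in size as well, members called were 0 over the 3 gels, 2 in the co-cultured subsets, 3 in co-cultured against single NFs and 1 in tumor cells, and all genes called were 192, 223, 2047 and 418, with 4899 and 3999 between cell types alone and in co-culture. DESeq2 called 5 members and 1676 genes over the gels, 8 and 797 in the co-cultured subsets, 97 genes for the interaction and 1574 in tumor cells. Fitting tumor cells with all 10 libraries called 1817. Without a filter beyond 1 count, 3 members and 603 genes were called in the co-cultured subsets and 18 genes for the interaction, against 38 with a filter of 1 CPM in 2 libraries.

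The gel as replicate block, a paired fit, called 9 members and 2407 genes in the co-cultured subsets and 395 genes for the interaction, and it changed no other call of a member where it could be fitted. It could not be fitted where culture was compared over gels. Leaving out libraries gave 0 to 6 members and 17 to 1309 genes over the gels, 0 to 3 members and 0 to 451 genes in the co-cultured subsets, 0 to 2 members and 0 to 30 genes for the interaction, and 406 to 1014 genes in tumor cells, where 1 line alone was then compared. In the co-cultured subsets the lowest counts came without the CD26+ library of gel 4, with 3284 genes and 6 members at an unadjusted p under 0.05. The causes were not tested. Shares of other cells' RNA by markers other than Col1a1 and Epcam, chosen after seeing the data, are given with the results. Depth limits Eln, Fbn2, Fbln1 and Efemp1 in tumor cells, where most values lie under the floor of 3 counts.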
